A study of Homo sapiens with 12 samples.

Results

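The BCL2 family decides whether a cell keeps its mitochondrial outer membrane intact, and 10 of its genes were followed here among the 26475 gene symbols of the RNA-seq table. The rule names the genes and uses no measured value, although they were picked with earlier results of these data known. They are the guardians BCL2, BCL2L1 and MCL1, the effectors BAX and BAK1, and the BH3-only genes BID, BCL2L11, BBC3, PMAIP1 and BAD. All 10 were in the table and all 10 passed the filter on low counts. The cells were MIAPaCa2, an established human pancreatic ductal adenocarcinoma (PDAC) line, and an oxamate-resistant polyclonal population isolated from it after weeks of continuous culture in sodium oxamate, a competitive inhibitor of lactate dehydrogenase A. Parental and resistant cells were each measured without drug (labelled untreated, and called vehicle here) and with oxamate, in 3 replicates per group and 12 libraries in all. How long oxamate was given before RNA extraction is not given in the sources used here, so every oxamate value below stands for an exposure of unknown length. Nothing in the labels says that replicates came from separate cultures, so the p-values below measure the spread between these libraries, which may be technical.

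In the textbook account, guardian proteins bind and hold back the effectors, which otherwise assemble into pores in the outer membrane, release cytochrome c and start the caspase cascade. BH3-only proteins sense stress and bind guardians through their BH3 helix, and some of them also activate the effectors directly. PMAIP1 encodes NOXA, which prefers MCL1, BBC3 encodes PUMA, which binds all the guardians, BAD prefers BCL2 and BCL-xL, and BCL2L11 encodes BIM. BCL2L1 encodes BCL-xL, a guardian with a known place in pancreatic tumor cells, and MCL1 is a short-lived protein governed largely by its turnover. Protein levels were not measured, and mRNA levels were compared.

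The genes whose oxamate responses differed most between the lines were BBC3, PMAIP1 and BAK1, and the DNA ahead of their start sites is printed for that reason. The stretches lie ahead of RefSeq starts (GRCh38.p14), and the set of promoters used here covered 9 of the 10 genes, all except MCL1. Each runs 5′ to 3′ from position -250 relative to the RefSeq start and stops before the first base that GENCODE release 29 places in the gene. BAK1 is read from the minus strand at chr6:33580294-33580526, BBC3 from the minus strand at chr19:47232767-47232917 and PMAIP1 from the plus strand at chr18:59899746-59899947. Capitals mark the letters searched for on both strands.
BAK1: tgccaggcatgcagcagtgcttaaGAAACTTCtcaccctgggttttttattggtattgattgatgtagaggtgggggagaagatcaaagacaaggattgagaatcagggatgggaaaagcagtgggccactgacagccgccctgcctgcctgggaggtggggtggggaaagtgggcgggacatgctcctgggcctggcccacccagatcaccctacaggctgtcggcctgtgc
BBC3: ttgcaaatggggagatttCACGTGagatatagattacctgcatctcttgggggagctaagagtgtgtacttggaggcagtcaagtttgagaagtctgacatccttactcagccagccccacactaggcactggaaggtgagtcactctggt
PMAIP1: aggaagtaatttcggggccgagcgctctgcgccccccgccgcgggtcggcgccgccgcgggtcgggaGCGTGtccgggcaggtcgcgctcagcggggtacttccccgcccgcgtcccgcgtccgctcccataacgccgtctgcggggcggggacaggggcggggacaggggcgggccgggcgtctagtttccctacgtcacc
The BAK1 stretch held heat shock letters (GAANNTTC) at -226 to -219. Of all 35116 promoters of the table, 5.78% held these letters in the same 250 bases. The BBC3 stretch held an E-box (CACGTG) at -232 to -227, which 6.34% of all promoters held. The PMAIP1 stretch held GCGTG, a core of the hypoxia response element, at -183 to -179, and a second copy lay outside the printed stretch at -25 to -21, against 32.2% of all promoters with at least 1 copy. ACGTG, the other core, was found in 18.5% of all promoters and lies within every CACGTG. Among the other members, BAX had 4 copies of CACGTG and BCL2L11 had the FOXO letters GTAAACA, which 2.98% of promoters held. BID promoters also held CACGTG, and GCGTG lay on either strand in promoters of BCL2L1, BID, BAD and BCL2L11. TGATGNAA, the composite letters for ATF4 and CHOP, were in 3.14% of all promoters and in no promoter of these 9 genes.

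Levels are stated in CPM, that is, counts brought to a common scale with TMM factors, which allow for differences in the composition of the libraries. Log2 fold changes, their SE and Benjamini-Hochberg adjusted p-values come from edgeR's quasi-likelihood test fitted across all 14582 genes that passed the filter, and a gene was called at an adjusted p under 0.05. Summed expected counts lay between 46698729 and 114222169 per library and were larger in each parental than in any resistant library. The least abundant member, BCL2, had between 121 and 334 counts per library, against a floor of 3 counts (0.0283 to 0.0581 CPM, for counting error only). LDHA, the drug target, had a mean of 1074 ± 13.6 CPM (SD, n = 3) in vehicle-treated parental cells and 1647 ± 87.6 CPM after oxamate, and 960 ± 13.8 and 1213 ± 13.4 CPM in resistant cells. LDHB was at or under the floor throughout. Nuclear-retained RNA (MALAT1, NEAT1, KCNQ1OT1 and MIAT summed) ran from 321 to 357 CPM in vehicle-treated parental cells and from 1080 to 1407 CPM in oxamate-treated resistant cells. In oxamate-treated parental and vehicle-treated resistant cells it stood at 534 to 583 CPM in 4 libraries, and at 1187 and 1112 CPM in replicate 3 of each. Each result of the members was therefore also fitted with this sum as a covariate and without those 2 libraries, and is given where the call changed. The sum also differed between the groups, so the covariate cannot be fully separated from line and treatment. For all other genes named, whether the call changed in these fits was not examined.

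The labelled cell type was checked against its markers. KRT8, KRT18, KRT19 and VIM were high, with vehicle-treated parental means of 1458, 1249, 647 and 9445 CPM, and all 4 were lower in resistant cells after both treatments, KRT8 by a log2 difference of -1.11 after vehicle. EPCAM was at or near the floor. CD3E and KDR had no counts, and PTPRC, DCN and LUM were at or under 0.028 CPM on average. Of the other lists, 3 of 6 fibroblast, 2 of 5 leukocyte and 2 of 4 endothelial markers passed the filter. COL1A2 (703 to 941 CPM over the group means) and CD68 (57.7 to 215 CPM) were the abundant ones, and CD68 was lower in resistant cells after vehicle by -1.40. The part of these markers in the results below was not tested. In bulk RNA, fewer cells that express a gene and less of its RNA per cell cannot be told apart.

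Per kilobase of the longest coding transcript of GENCODE release 29, the level in vehicle-treated parental cells was 86.3 ± 0.793 CPM for MCL1, 80.1 ± 3.6 for BAX, 71.0 ± 1.36 for BCL2L1 and 56.3 ± 1.94 for BAK1 (SD, n = 3). It was 47.1 ± 2.05 for BBC3, 41.6 ± 1.92 for BAD, 18.1 ± 0.476 for BID, 11.5 ± 0.619 for PMAIP1, 8.17 ± 0.198 for BCL2L11 and 0.435 ± 0.0299 for BCL2. The order of MCL1 and BAX depended on the transcript length chosen, since with the median length the values were 93.6 and 177. That of BAK1, BBC3 and BAD did as well, at 58.3, 51.5 and 61.6 with the median length. On this scale the 2 most abundant guardians were MCL1 and BCL2L1, and BCL2 was the lowest member. In oxamate-treated resistant cells the per-kilobase levels of BAK1 and BBC3, 29.2 ± 1.07 and 29.1 ± 0.608 CPM, stood side by side within their spread, whereas after oxamate in parental cells BAK1 was at 71.7 ± 0.513 and BBC3 at 63.8 ± 1.59.

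**Figure D1:**
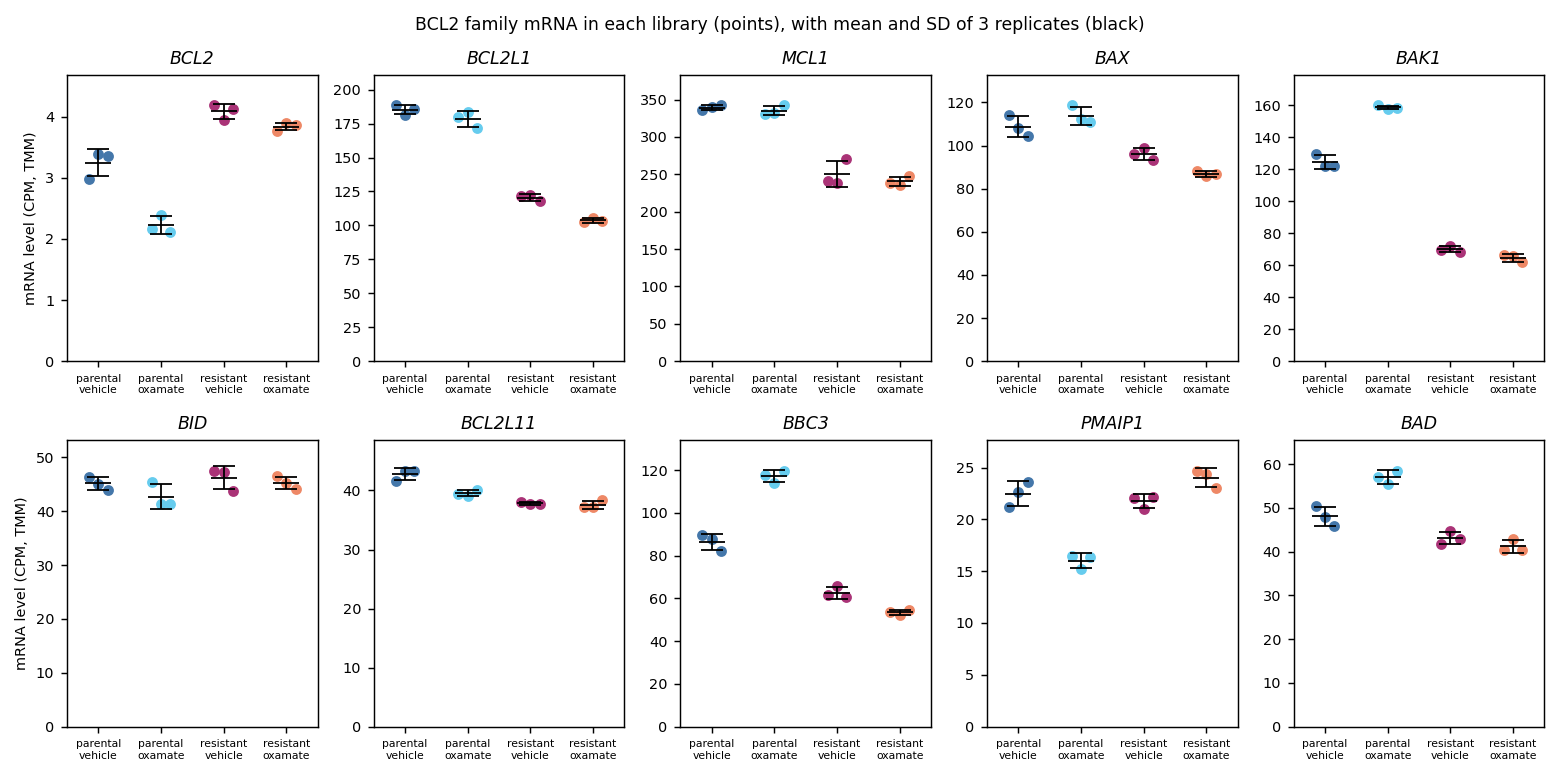
Level of each of the 10 genes in every library (vertical axes, TMM-scaled CPM from 0; points are libraries in replicate order, black bars the mean and SD of 3 replicates) in the 4 groups. BAK1 and BBC3 are highest in oxamate-treated parental cells, PMAIP1 and BCL2 are lowest there, and BCL2L1 and MCL1 are lower in both groups of resistant cells.

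BCL2L1, the gene for BCL-xL (chr20:31664452-31723989, minus strand, GENCODE release 29), was lower in resistant than in parental cells and was lowered further by oxamate in resistant cells. The vehicle-treated parental libraries held 189, 182 and 186 CPM and the oxamate-treated ones 180, 184 and 172. The resistant libraries held 122, 122 and 118 CPM after vehicle and 102, 105 and 103 after oxamate. No resistant library reached a parental one, and the 2 resistant groups did not overlap. The log2 difference between resistant and parental cells was -0.62 (SE 0.03, adjusted p = 1.33e-11) after vehicle, 1.54-fold, and -0.78 (SE 0.03, adjusted p = 4.76e-13) after oxamate. Oxamate lowered it in resistant cells by a log2 change of -0.22 (SE 0.03, adjusted p = 0.000118). In parental cells the change was -0.05 (95% interval -0.11 to 0.0047, adjusted p = 0.106), and it passed the test without replicate 2 of oxamate-treated parental cells (-0.07, adjusted p = 0.0485) and with library size alone (-0.13, adjusted p = 0.000125), while the covariate turned it to 0.01 (adjusted p = 0.79).

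MCL1 (chr1:150574551-150579738, minus strand) was also lower in resistant cells, and its change under oxamate was called in neither line. The parental libraries held 336, 340 and 342 CPM after vehicle and 331, 332 and 342 after oxamate, and the resistant ones 241, 239 and 271 after vehicle and 239, 236 and 248 after oxamate. Replicate 3 of vehicle-treated resistant cells, a library high in nuclear-retained RNA, was the highest of the resistant libraries and still below every parental one. The log2 difference was -0.44 (SE 0.04, adjusted p = 3.75e-08) after vehicle and -0.48 (SE 0.04, adjusted p = 8.61e-09) after oxamate. The change under oxamate was -0.02 (95% interval -0.10 to 0.06) in parental cells and -0.06 (-0.14 to 0.03) in resistant cells, where it turned to 0.0039 without that replicate. With nuclear-retained RNA as a covariate both changes passed the test, at -0.12 (adjusted p = 0.00644) and -0.14 (adjusted p = 0.00769).

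BCL2 (chr18:63123346-63320128, minus strand), the founding guardian, moved the other way from BCL2L1 and MCL1. Its level was 2.99, 3.39 and 3.36 CPM in vehicle-treated parental libraries and 2.16, 2.40 and 2.12 after oxamate. In resistant libraries it was 4.19, 3.95 and 4.13 CPM after vehicle and 3.77, 3.89 and 3.86 after oxamate. Every resistant library was above every parental one, and every oxamate-treated parental library was below every vehicle-treated one. Oxamate lowered BCL2 in parental cells by -0.54 (SE 0.08, adjusted p = 3.6e-05), and the change in resistant cells was -0.09 (95% interval -0.26 to 0.08, adjusted p = 0.443). Resistant cells were higher by 0.34 (SE 0.08, adjusted p = 0.000879) after vehicle and by 0.79 (SE 0.08, adjusted p = 2.68e-07) after oxamate, 1.73-fold.

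BAK1 (chr6:33572547-33580293, minus strand), 1 of the 2 pore-forming effectors, had the largest differences between the lines among the 10 genes. Its level was 129, 122 and 122 CPM in vehicle-treated parental libraries and 160, 158 and 158 after oxamate. In resistant libraries it was 69.5, 72.0 and 68.3 CPM after vehicle and 66.2, 65.5 and 61.8 after oxamate. The 4 groups did not overlap, and the order was oxamate-treated parental, vehicle-treated parental, vehicle-treated resistant and oxamate-treated resistant cells. Oxamate raised BAK1 in parental cells by 0.35 (SE 0.03, adjusted p = 1.21e-07). Resistant cells were lower by -0.83 (SE 0.03, adjusted p = 2.23e-12) after vehicle, 1.78-fold, and by -1.30 (SE 0.03, adjusted p = 7.12e-15) after oxamate, 2.46-fold. The change in resistant cells was -0.12 (SE 0.03, adjusted p = 0.0218), a call that was lost without replicate 1 or 2 of vehicle-treated or replicate 3 of oxamate-treated resistant cells (adjusted p = 0.0521, 0.0993 and 0.115) with the covariate for nuclear-retained RNA (adjusted p = 0.169), with upper-quartile factors (adjusted p = 0.0517) and with library size alone (adjusted p = 0.0564).

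BAX (chr19:48954815-48961798, plus strand), the other effector, moved less. Its mean was 109 ± 4.89 CPM in vehicle-treated and 114 ± 4.19 in oxamate-treated parental cells, and 96.1 ± 2.86 and 86.9 ± 1.28 in the corresponding resistant cells (SD, n = 3). The parental groups overlapped and the resistant groups did not. Oxamate lowered BAX in resistant cells by -0.15 (SE 0.04, adjusted p = 0.0103), a call lost without replicate 2 of vehicle-treated resistant cells (adjusted p = 0.0538) and with the covariate (adjusted p = 0.13). The parental change was 0.06 (95% interval -0.01 to 0.14, adjusted p = 0.124), turned to -0.01 with library size alone as the scaling, and passed the test without replicate 1 of vehicle-treated parental cells (0.10, adjusted p = 0.0227), with the covariate (0.12, adjusted p = 0.0228) and without the 2 libraries high in nuclear-retained RNA (0.08, adjusted p = 0.0491). Resistant cells were lower by -0.18 (SE 0.04, adjusted p = 0.000227) after vehicle, a call lost with the covariate (-0.11, adjusted p = 0.0535) and turned by library size alone to 0.04 (adjusted p = 0.262). After oxamate they were lower by -0.39 (SE 0.04, adjusted p = 3.99e-08), a call lost with library size alone (-0.07, adjusted p = 0.0692).

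BBC3, the gene for PUMA (chr19:47220822-47232766, minus strand), rose under oxamate in parental cells and fell under it in resistant cells. Its level was 89.5, 87.9 and 82.3 CPM in vehicle-treated parental libraries and 118, 114 and 120 after oxamate. In resistant libraries it was 61.4, 65.7 and 60.4 CPM after vehicle and 53.6, 52.2 and 54.4 after oxamate. As for BAK1, the 4 groups did not overlap and stood in the same order. The parental change was 0.44 (SE 0.04, adjusted p = 5.29e-08) and the resistant change -0.23 (SE 0.04, adjusted p = 0.000909). Resistant cells were lower by -0.47 (SE 0.04, adjusted p = 9.35e-09) after vehicle and by -1.13 (SE 0.04, adjusted p = 1.64e-13) after oxamate, 2.20-fold.

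PMAIP1, the gene for NOXA (chr18:59899948-59904306, plus strand), went the opposite way. Its level was 21.2, 22.6 and 23.6 CPM in vehicle-treated parental libraries and 16.5, 15.2 and 16.4 after oxamate. In resistant libraries it was 22.1, 21.0 and 22.2 CPM after vehicle and 24.7, 24.3 and 23.0 after oxamate. Oxamate-treated parental cells stood below all other groups, and the vehicle-treated libraries of the 2 lines overlapped. The parental change was -0.48 (SE 0.05, adjusted p = 4.08e-07). The difference between the lines after vehicle was -0.04 (95% interval -0.14 to 0.06, adjusted p = 0.417), with the opposite sign under upper-quartile factors (0.03) and library size alone (0.18, adjusted p = 0.00486), and after oxamate it was 0.58 (SE 0.05, adjusted p = 1.42e-08). The rise in resistant cells, 0.14 (SE 0.05, adjusted p = 0.0455), was lost when any vehicle-treated replicate or oxamate-treated replicate 1 or 2 was left out (adjusted p = 0.0902, 0.177, 0.0526, 0.151 and 0.12 in that order), with the covariate (adjusted p = 0.269), with no filter on low counts (adjusted p = 0.0593) and with DESeq2 (adjusted p = 0.0694).

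BAD (chr11:64269830-64284704, minus strand), whose protein is held inactive by phosphorylation under growth factor signalling, rose under oxamate in parental cells. Its level was 50.4, 47.8 and 46.0 CPM in vehicle-treated parental libraries and 57.2, 55.4 and 58.6 after oxamate, against 41.8, 44.6 and 42.9 and 40.4, 42.9 and 40.4 in resistant libraries. The parental groups did not overlap and the resistant groups did. The parental change was 0.25 (SE 0.04, adjusted p = 4.16e-05) and the resistant change -0.07 (95% interval -0.15 to 0.02, adjusted p = 0.257). Resistant cells were lower by -0.16 (SE 0.04, adjusted p = 0.00144) after vehicle, a call lost with upper-quartile factors (adjusted p = 0.0565) and turned by library size alone to 0.06 (adjusted p = 0.171), and by -0.47 (SE 0.04, adjusted p = 1.24e-08) after oxamate.

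The direct activators BIM and BID varied least. BCL2L11, the gene for BIM (chr2:111119378-111168447, plus strand), had a mean of 42.8 ± 1.04 CPM in vehicle-treated and 39.5 ± 0.506 in oxamate-treated parental cells, and 37.9 ± 0.25 and 37.6 ± 0.7 in resistant cells (SD, n = 3). The parental groups did not overlap, and the resistant groups did. Oxamate lowered it in parental cells by -0.11 (SE 0.03, adjusted p = 0.0029), and the resistant change was -0.01 (95% interval -0.07 to 0.05), with the opposite sign under upper-quartile factors (0.01) and library size alone (0.02). Resistant cells were lower by -0.18 (SE 0.03, adjusted p = 3.84e-05) after vehicle, where library size alone gave 0.04. After oxamate the difference was -0.07 (SE 0.03, adjusted p = 0.0325), a call lost without replicate 1 or 3 of oxamate-treated parental cells (adjusted p = 0.0574 and 0.0902) or replicate 1 or 2 of oxamate-treated resistant cells (0.101 and 0.104). It was also lost with the covariate (adjusted p = 0.0542), without the 2 libraries high in nuclear-retained RNA (adjusted p = 0.104), with DESeq2 (adjusted p = 0.0691) and with only the groups compared (adjusted p = 0.201), and it turned to 0.01 under upper-quartile factors (adjusted p = 0.676) and to 0.25 under library size alone (adjusted p = 3.96e-06). BID (chr22:17734138-17774770, minus strand), which links death receptors to the mitochondria once caspase-8 cuts it, was called in no comparison of the fit described above, a result that several alternatives changed. Its group means were 45.2 ± 1.19, 42.7 ± 2.37, 46.2 ± 2.11 and 45.3 ± 1.19 CPM in the order vehicle- and oxamate-treated parental and vehicle- and oxamate-treated resistant cells, and all groups compared overlapped. Its largest difference, 0.08 between the lines after oxamate (95% interval -0.01 to 0.17, adjusted p = 0.0793), passed the test without replicate 1 of oxamate-treated parental cells (0.13, adjusted p = 0.00896), with the covariate (0.18, adjusted p = 0.00363), a replicate block (0.08, adjusted p = 0.0197), only the groups compared (0.11, adjusted p = 0.0258), upper-quartile factors (0.17, adjusted p = 0.00123) and library size alone (0.41, adjusted p = 1.12e-07). After vehicle BID was called higher in resistant cells with the covariate (0.14, adjusted p = 0.0286), upper-quartile factors (0.11, adjusted p = 0.0211) and library size alone (0.25, adjusted p = 2.04e-05). In parental cells it was called lower under oxamate without replicate 1 of oxamate-treated cells (-0.13, adjusted p = 0.0136), with a replicate block (-0.08, adjusted p = 0.0299) and with library size alone (-0.16, adjusted p = 0.00208), while the covariate gave 0.0045 (adjusted p = 0.949).

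**Figure D2:**
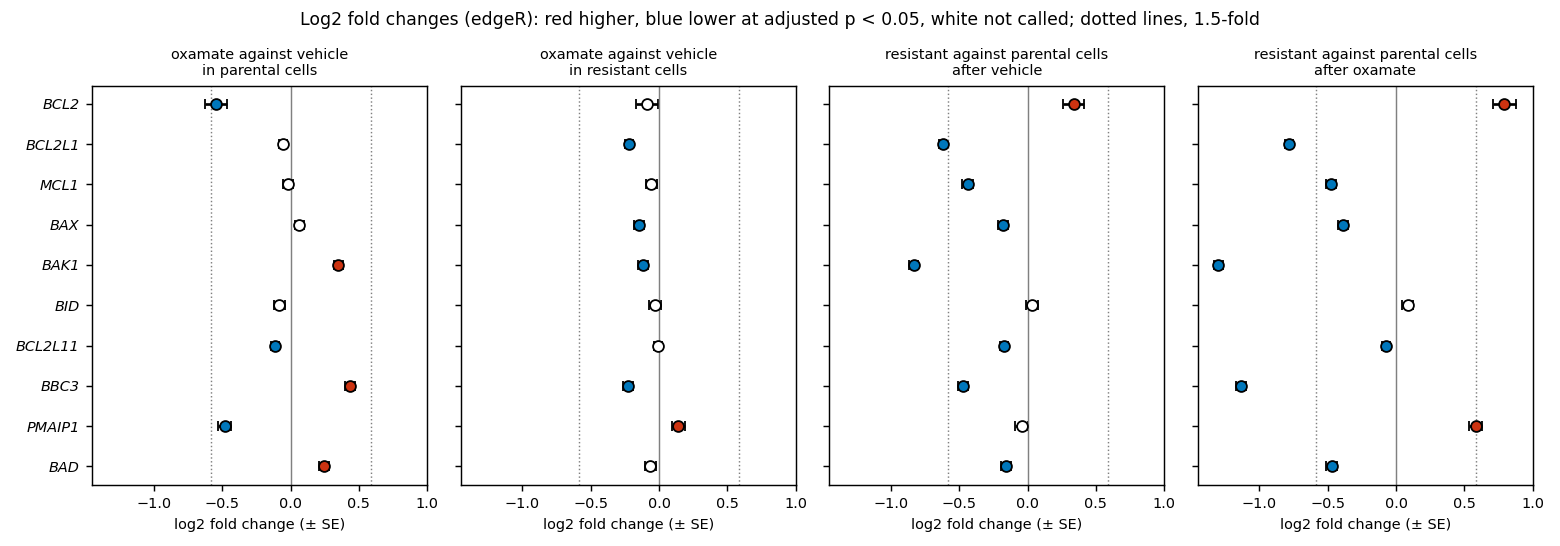
Log2 fold change of each gene (horizontal axis, bars ± SE, often shorter than the marker) in the 4 comparisons, red or blue where called higher or lower and white where not called. Between the lines after oxamate BAK1 reaches -1.30 and BBC3 -1.13, while under oxamate within either line no gene passes the dotted 1.5-fold lines.

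Counted over the 10 genes, oxamate in parental cells raised 3 (BBC3, BAK1 and BAD) and lowered 3 (BCL2, PMAIP1 and BCL2L11), where 28.3% of all genes tested were called higher and 30.4% lower. The median log2 change of the members was -0.04, and that of all genes 0.0030. In resistant cells oxamate raised 1 (PMAIP1) and lowered 4 (BCL2L1, BBC3, BAX and BAK1), where 9.01% of all genes were called higher and 12.5% lower, with a member median of -0.08. At the threshold stated in the methods of the study, an unadjusted p under 0.05 and over 1.5-fold, no member passed in either line, beside 9.88% of all genes in parental and 2.50% in resistant cells. Between resistant and parental cells after vehicle, 1 member was higher (BCL2) and 7 were lower, beside 38.4% and 37.3% of all genes, with medians of -0.18 for the members and 0.03 for all genes. After oxamate 2 were higher (BCL2 and PMAIP1) and 7 lower, beside 40.6% and 39.7% of all genes, with medians of -0.43 and 0.01. The threshold of 1.5-fold was passed by BAK1 and BCL2L1 after vehicle, where 23.4% of all genes passed it, and by BCL2, BCL2L1, BAK1 and BBC3 after oxamate, where 34.3% did. The comparisons share groups, so their counts are not independent of each other.

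These splits depended on the scaling, because library size alone moved the median of all genes between the lines to 0.24 after vehicle and 0.34 after oxamate. With it, 3 members were called higher and 4 lower after vehicle, beside 8540 genes higher and 2769 lower in place of 5602 and 5436. After oxamate 4 were higher and 5 lower, beside 9133 and 2819 genes in place of 5923 and 5785. In parental cells under oxamate 3 were higher and 5 lower, beside 2853 and 5922 genes in place of 4124 and 4439. In resistant cells under oxamate 1 was higher and 3 lower under library size alone and under upper-quartile factors alike, beside 1753 and 1179 and 1679 and 1269 genes in place of 1314 and 1825. The calls of BAK1, BCL2L1, BBC3, MCL1 and BCL2 between the lines kept their direction and their side of the threshold under every alternative run after both treatments.

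The oxamate response differed between the lines for 7 of the 10 genes in the test of the difference itself, which takes the resistant change minus the parental one. It was positive for 2 members, PMAIP1 at 0.62 (SE 0.07, adjusted p = 2.57e-06) and BCL2 at 0.45 (SE 0.11, adjusted p = 0.00408), beside 22.7% of all genes. It was negative for 5, beside 21.4% of all genes, namely BBC3 at -0.66 (SE 0.05, adjusted p = 1.19e-07), BAK1 at -0.47 (SE 0.05, adjusted p = 9.67e-07), BAD at -0.31 (SE 0.05, adjusted p = 0.000266), BAX at -0.21 (adjusted p = 0.00288) and BCL2L1 at -0.16 (adjusted p = 0.0034). BBC3 and PMAIP1 also passed 1.5-fold with an unadjusted p under 0.05, as 8.48% of all genes did. The difference was -0.04 for MCL1 (95% interval -0.15 to 0.08), where library size alone gave 0.07, and 0.05 for BID (-0.07 to 0.18), which was called with library size alone (0.16, adjusted p = 0.0251). For BCL2L11 it was 0.10 (0.02 to 0.19, adjusted p = 0.0539), and it passed the test without replicate 1 of vehicle-treated parental cells (0.12, adjusted p = 0.0208), with the covariate (0.11, adjusted p = 0.0415), upper-quartile factors (0.11, adjusted p = 0.0352) and library size alone (0.21, adjusted p = 0.00159). With library size alone, 4 differences were positive and 3 negative, beside 5050 and 1756 genes in place of 3313 and 3125, and the calls of BAX and BCL2L1 were lost (adjusted p = 0.0677 and 0.155). Those of BBC3, PMAIP1, BAK1, BAD and BCL2 passed under all 22 alternatives, with ranges of -0.69 to -0.56, 0.59 to 0.73, -0.50 to -0.36, -0.35 to -0.21 and 0.41 to 0.56.

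**Figure D3:**
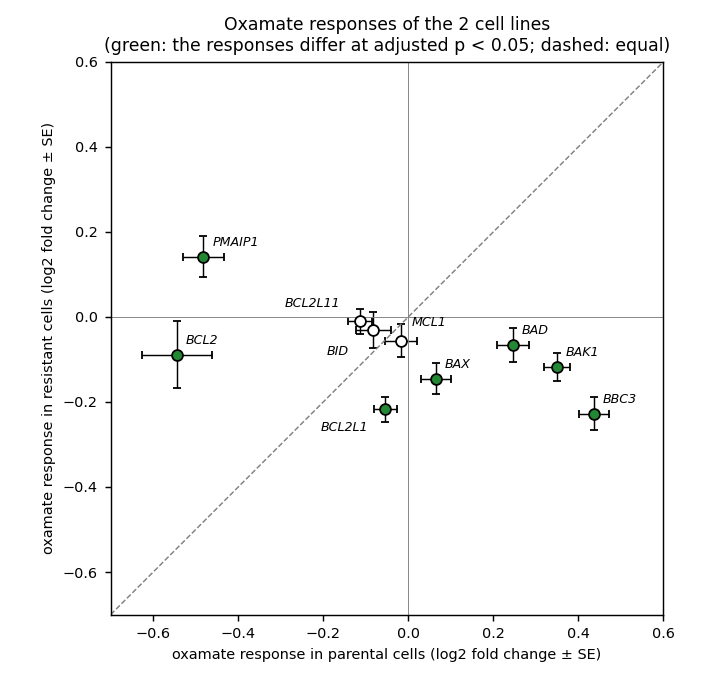
Oxamate response of each gene in parental (horizontal) and resistant cells (vertical), both as log2 fold change ± SE, green where the 2 responses differed at an adjusted p under 0.05. BBC3, BAK1 and BAD lie to the lower right of the dashed line of equal responses, and PMAIP1 and BCL2 to its upper left.

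Ratios of 2 members within a library do not depend on the scaling, and are given as a description relative to the mean of vehicle-treated parental cells, with the lowest and highest library. MCL1 encodes a guardian, and PMAIP1 a BH3-only protein that prefers it. The log2 ratio of MCL1 to PMAIP1 was 0.47 (0.41 to 0.53) in oxamate-treated parental cells. It was -0.40 (-0.47 to -0.31) in vehicle-treated resistant cells and -0.59 (-0.65 to -0.49) in oxamate-treated resistant cells. The parental groups were far apart, and the resistant groups stood close to each other without overlap. MCL1 to BAK1, a guardian and an effector that it holds, stood at -0.37 (-0.40 to -0.33), 0.39 (0.28 to 0.54) and 0.45 (0.40 to 0.56) in the same order. BCL2L1 to BAK1 stood at -0.40 (-0.45 to -0.36), 0.21 (0.19 to 0.23) and 0.11 (0.06 to 0.16). Relative to BAK1, both guardians were therefore lower than in vehicle-treated parental cells in every oxamate-treated parental library and higher in every resistant library.

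Relative to BAX the pattern was another one. BCL2L1 to BAX was -0.12 (-0.17 to -0.06) in oxamate-treated parental, -0.44 (-0.47 to -0.43) in vehicle-treated resistant and -0.51 (-0.55 to -0.47) in oxamate-treated resistant cells. BCL2L1 to BAD was -0.30, -0.46 and -0.62 in the same groups, and BCL2L1 to MCL1 was -0.04, -0.18 and -0.34. BCL2L1 to BCL2L11 was 0.06, -0.45 and -0.65, so both resistant groups were lower and oxamate-treated parental cells were not. For the 2 effectors, the ratio of BAX to BAK1 was -0.28 in oxamate-treated parental cells, and it ran from 0.64 to 0.66 over the vehicle-treated and from 0.58 to 0.69 over the oxamate-treated resistant libraries.

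**Figure D4:**
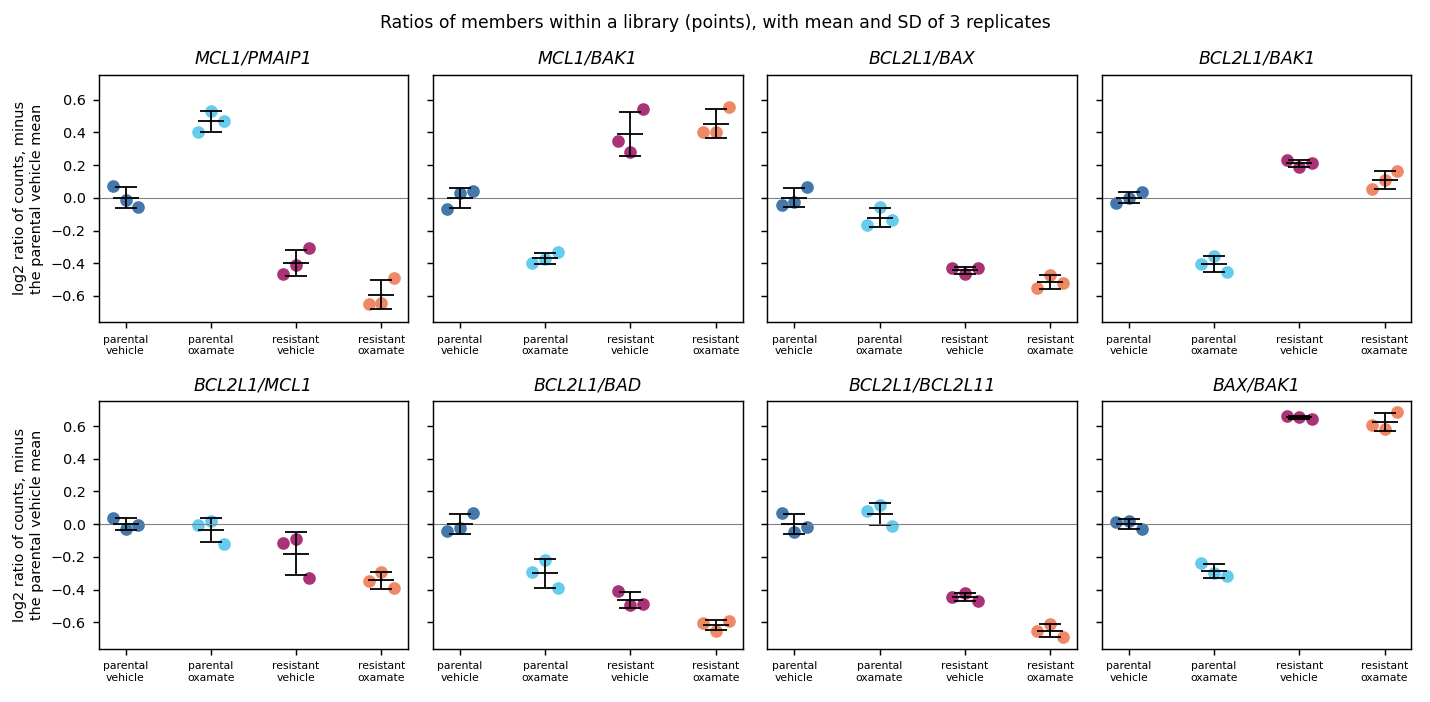
Log2 ratio of the expected counts of 2 genes in the same library, minus the mean of vehicle-treated parental cells (vertical axes; points are libraries, black bars mean and SD of 3 replicates), for 8 pairs. MCL1/PMAIP1 is raised in oxamate-treated parental cells and lowered in resistant cells, and BAX/BAK1 is above 0 in all 6 resistant libraries.

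The rest of the family was less covered, with 8 of 13 further members passing the filter, and BCL2A1, BCL2L10, BCL2L14, BCL2L15 and BNIP3 not tested. BNIP3L, a BH3-like protein of mitophagy, rose under oxamate in parental cells from 244 to 395 CPM (log2 change 0.69, SE 0.04, adjusted p = 3.38e-10) and less in resistant cells (0.20, adjusted p = 0.00116; test of the difference -0.49, adjusted p = 1.49e-06). BMF, a BH3-only gene linked to loss of attachment, was higher in resistant cells after vehicle (8.28 to 12.6 CPM, 0.61, adjusted p = 3.57e-08), and BCL2L12 was lower (76.3 to 52.4 CPM, -0.54, adjusted p = 5.2e-11). The counts given for this and the next 5 lists stand beside shares over all genes of 28.3% higher and 30.4% lower under oxamate in parental cells, 9.01% and 12.5% in resistant cells, and 38.4% and 37.3% between the lines after vehicle. Of these family members 2 were higher and 3 lower in parental cells under oxamate, with a median of 0.06, and 2 higher and 3 lower between the lines after vehicle, with a median of -0.07.

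Downstream of the mitochondria, all 14 genes of the apoptosome and caspase list were tested. Between the lines after vehicle 6 were higher and 7 lower, with a median of -0.07, and oxamate raised 3 and lowered 7 in parental cells and raised 2 and lowered 1 in resistant cells. CASP8, the initiator caspase of death receptors, was higher in resistant cells (31.5 to 54.8 CPM, 0.80, SE 0.03, adjusted p = 1.88e-12) and fell under oxamate in parental cells (-0.32, adjusted p = 5.05e-07). CYCS, the gene for cytochrome c, was lower in resistant cells (130 to 91.7 CPM, -0.50, SE 0.03, adjusted p = 2.49e-10) and fell further under oxamate there (-0.14, adjusted p = 0.00411). CFLAR, which encodes the caspase-8 inhibitor FLIP, rose under oxamate in resistant cells (0.17, adjusted p = 0.0011). The difference of the responses was positive for 5 of the 14 and negative for 0 at an adjusted p under 0.05, beside 22.7% and 21.4% of all genes.

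Inhibitor of apoptosis genes encode proteins that bind caspases or their upstream complexes. Of 7 tested, 6 were higher and 1 lower in resistant cells after vehicle, beside 38.4% and 37.3% of all genes. The median of the 7 was 0.40, and 4 passed 1.5-fold, beside 23.4% of all genes in either direction. These 4 were BIRC3, the lower gene BIRC5, and the scarce BIRC7 (0.263 to 0.543 CPM) and NAIP (0.807 to 1.75 CPM). BIRC3, the gene for cIAP2, rose from a parental level of 43.3 CPM to 154 CPM (1.84, SE 0.04, adjusted p = 5.11e-15), and BIRC5, the gene for survivin, which also serves in mitosis, was the 1 lower gene (121 to 77.7 CPM, -0.64, adjusted p = 5.55e-12). In parental cells oxamate lowered 5, among them BIRC3 (-0.34, SE 0.04, adjusted p = 7.93e-06), and raised 2, BIRC7 among them from 0.263 to 0.959 CPM. In resistant cells it raised 2 and lowered 0, and NAIP, which shares sequence with near-identical copies and whose value is uncertain, had the smallest p (0.57, adjusted p = 0.0165).

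Upstream, the 11 death receptor and adaptor genes were led under oxamate in parental cells by FADD and TRADD, the genes with the smallest p in each direction. TRADD, the adaptor of TNF receptor 1, rose from 27.6 to 36.6 CPM (0.40, SE 0.03, adjusted p = 2.77e-08). FADD, the adaptor that recruits caspase-8, fell from 20.1 to 9.27 CPM under oxamate in parental cells (-1.11, SE 0.05, adjusted p = 8.84e-11), and the response differed in resistant cells by 1.28 (adjusted p = 1.92e-09). RIPK1, a kinase of the same complexes, stood at 23.7 CPM after vehicle in resistant cells against 9.35 CPM in parental cells (1.35, SE 0.04, adjusted p = 7.49e-14). In that list 4 were raised and 6 lowered by oxamate in parental cells, 4 raised and 1 lowered in resistant cells, and 5 were higher and 3 lower between the lines after vehicle, with medians of -0.17, -0.07 and 0.14.

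Transcription factors known to act on BH3-only genes include those of the integrated stress response, FOXO, E2F and JUN families. They were listed together with TRIB3, a pseudokinase of the stress response that is no transcription factor. Of the 12 genes tested, TRIB3 included, oxamate raised 5 and lowered 7 in parental cells and raised 0 and lowered 4 in resistant cells, with medians of -0.10 and -0.11. After vehicle 3 were higher and 8 lower in resistant cells, with a median of -0.20. DDIT3, the gene for CHOP, was lower (50.3 to 24.8 CPM, -1.02, SE 0.05, adjusted p = 7.54e-11) while TRIB3, a known CHOP target, was higher (29.3 to 57.8 CPM, 0.98, SE 0.03, adjusted p = 7.57e-13). FOXO3 rose under oxamate in parental cells (0.22, SE 0.03, adjusted p = 3.46e-05), and its response differed in resistant cells by -0.40 (adjusted p = 7.76e-06). ATF4 had a mean of 207 CPM in vehicle-treated parental and 273 CPM in vehicle-treated resistant cells. It fell under oxamate in parental cells (-0.28, SE 0.03, adjusted p = 7.4e-07), and its response differed in resistant cells by 0.20 (adjusted p = 0.00108). TRIB3 fell under oxamate in parental (29.3 to 20.6 CPM) and in resistant cells (57.8 to 38.6 CPM).

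The last list holds 13 genes for MCL1 turnover and for partners of the family at the mitochondrial and reticulum membranes. FBXW7, which targets MCL1 for degradation, fell from 5.67 to 3.07 CPM under oxamate in parental cells (-0.86, SE 0.11, adjusted p = 4.72e-06), and its response differed in resistant cells by 0.94 (adjusted p = 6.92e-05). USP9X, which removes ubiquitin from MCL1, was higher in resistant cells (141 to 189 CPM, 0.43, SE 0.04, adjusted p = 5.8e-08), and TMBIM6, the BAX inhibitor of the reticulum, was lower (544 to 391 CPM, -0.48, SE 0.03, adjusted p = 1.47e-10). FBXW7, HUWE1 and BTRC also had higher means in vehicle-treated resistant than parental cells (9.18 against 5.67, 319 against 266 and 33.6 against 26.6 CPM). MARCH5, also in the list, had a lower mean (57.7 against 60.6 CPM). Oxamate raised 5 and lowered 3 in parental cells and raised 1 and lowered 0 in resistant cells, and 5 were higher and 7 lower between the lines after vehicle, with medians of 0.03, 0.01 and -0.09.

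**Figure D5:**
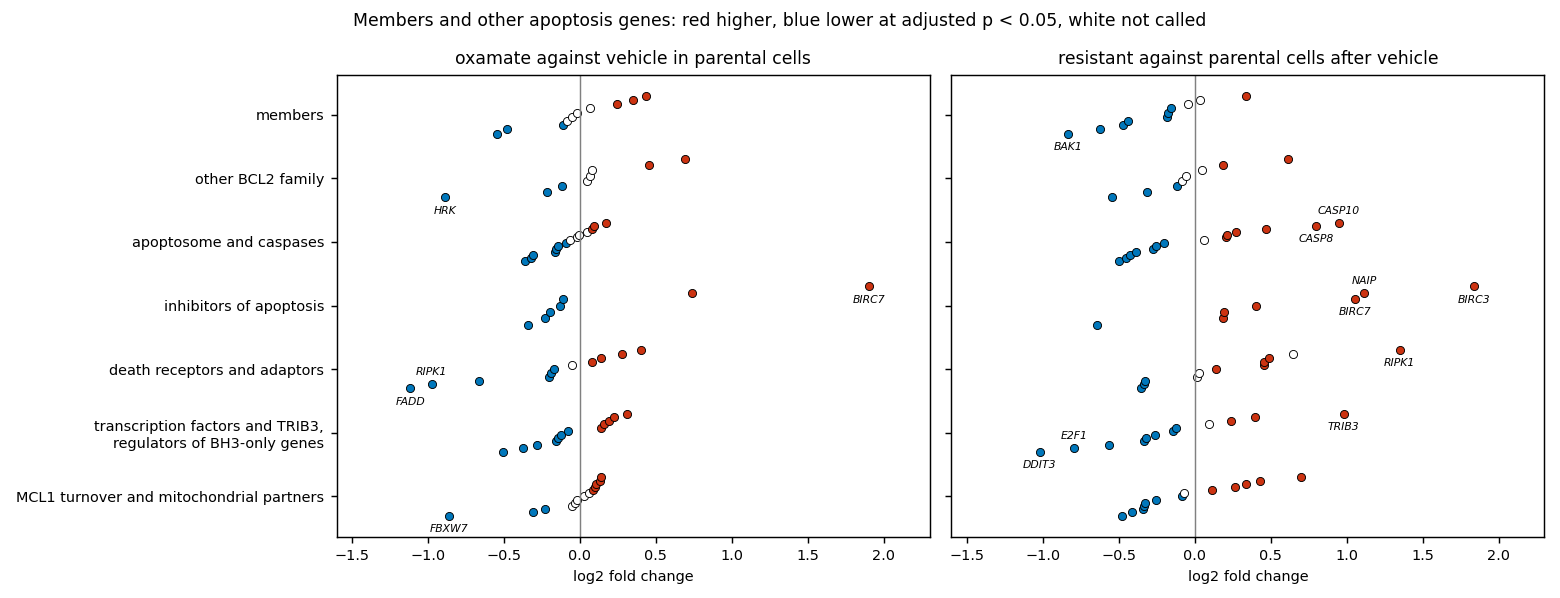
Log2 fold change (horizontal axis) of the 10 members and of the tested genes of 6 further apoptosis lists (rows), under oxamate in parental cells (left) and between the lines after vehicle (right), red or blue where called at an adjusted p under 0.05 and white where not, with names where the change exceeds 0.75 in size. The members lie within -0.54 to 0.44 on the left, while FADD reaches -1.11, and BIRC3 reaches 1.84 on the right.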

How the data were processed

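RNA of 12 libraries, 3 for each of 4 groups, was enriched with oligo(dT) beads. The authors deposited expected counts per gene symbol, estimated per the submitters' processing notes with RSEM 1.2.15 after mapping with Bowtie2 2.1.0 (hg38). The methods of the study also describe STAR and featureCounts, but 11.6% of the deposited counts were not whole, as RSEM gives them. RSEM divides reads shared by near-identical copies.

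In R 4.3.3, edgeR 4.0.16 was run on the rounded counts of all 12 libraries (TMM, default filterByExpr, glmQLFit and glmQLFTest) after a check on simulated data. Calls were made at a Benjamini-Hochberg adjusted p under 0.05 over all genes tested. CPM are the same counts scaled by TMM. No library pair of a group agreed within sampling noise. Intervals cover 95%, and floors counting error only.

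The members and lists were chosen with earlier results of these data known. Named were all members, LDHA and LDHB, nuclear-retained RNAs and cell type markers. From each list, some but not all of the genes with the smallest p in each direction of a comparison were named. HUWE1, BTRC and MARCH5 were added as further genes of MCL1 turnover. Alternatives were other scalings (RLE, upper-quartile, library size alone), no filter, unrounded counts, a replicate block, a covariate for nuclear-retained RNA, only the groups compared, limma-voom (limma 3.58.1), DESeq2 1.42.0 and each replicate left out. Leaving out the 2 libraries high in nuclear-retained RNA was added after seeing the data. One list of genes, 1 marker gene and 1 promoter motif are not reported here, and ATAC-seq and metabolite data were not analysed.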

Additional observations from a re-analysis of the deposited data

Results flagged for a closer look

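The oxamate response of 7 of the 10 genes differed between the lines in edgeR's test of the difference, taken as the resistant minus the parental log2 change, beside 44.2% of all genes. The difference was 0.62 for PMAIP1 and 0.45 for BCL2. It was -0.66 for BBC3, -0.47 for BAK1, -0.31 for BAD, -0.21 for BAX and -0.16 for BCL2L1. BBC3, BAK1 and PMAIP1 were called in opposite directions in the 2 lines, although the resistant calls of BAK1 and PMAIP1 were lost when single libraries were left out. BCL2 and BAD were called in parental cells alone, and BAX and BCL2L1 in resistant cells alone. For BAX this turned round with nuclear-retained RNA as a covariate, where the parental change was called (0.12, adjusted p = 0.0228 in edgeR's test) and the resistant one was not (-0.10, adjusted p = 0.13), and the resistant call was also lost without replicate 2 of vehicle-treated resistant cells (adjusted p = 0.0538). BCL2L1 was also called in parental cells with library size alone and without replicate 2 of oxamate-treated cells. Groups of 3 are too small for a test of single outlying libraries, and none was made.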

How the results depend on the processing

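Of 900 values recomputed for the members under the alternatives, 827 kept their direction and their side of the threshold, and 20 turned sign. Of those that kept their sign, 29 lost and 24 gained a call. Some of the 20 that turned sign also lost or gained a call. The cause was not tested. Counts of members called in resistant cells under oxamate ranged from 2 to 4 over the replicates left out, against 5, with the lowest count without replicate 2 of vehicle-treated resistant cells and 3 without its replicate 1, and it was 3 with nuclear-retained RNA as a covariate. Calls over all genes fell as well, from 1314 higher and 1825 lower to 666 and 1129 without that replicate 2. They were 674 and 1176 without replicate 1, and 593 and 982 with the covariate. Past 1.5-fold in parental cells, 1 member passed under library size alone and 0 to 1 over the replicates left out (1 without replicate 1 of vehicle- or replicate 2 of oxamate-treated cells), against 0. Between the lines after vehicle 1 passed under upper-quartile factors, library size alone and the covariate, against 2, and for the difference of the responses 1 passed under library size alone, against 2. In the fit described above 9.88%, 23.4% and 8.48% of all genes passed 1.5-fold in parental cells, between the lines after vehicle and for the difference. These shares were not computed under the alternatives.

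Signs turned as follows, none of them for a change called at an adjusted p under 0.05 in the same comparison except BAX, BAD and BCL2L11 between the lines. Under library size alone, the parental change of BAX was -0.010, the resistant changes of BCL2L11 and BID were 0.020 and 0.00027, and the differences between the lines after vehicle were 0.18 for PMAIP1, 0.039 for BAX, 0.060 for BAD and 0.044 for BCL2L11. It also gave 0.25 for BCL2L11 between the lines after oxamate and 0.066 for the difference of the responses of MCL1. Upper-quartile factors gave 0.013 for BCL2L11 in resistant cells and 0.014 between the lines after oxamate, and 0.034 for PMAIP1 between the lines after vehicle. The covariate gave 0.011 for BCL2L1 and 0.0045 for BID in parental cells and 0.043 for BID in resistant cells. MCL1 in resistant cells ranged from -0.091 to 0.0039 over the replicates left out, and its difference of responses from -0.073 to 0.021, both turned by leaving out replicate 3 of vehicle-treated resistant cells. Without the 2 libraries high in nuclear-retained RNA these were 0.0034 and 0.037, and the difference for BID was -0.012.

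The replicate numbers showed no clear pairing of the libraries, though the values cannot exclude one. Over 18 pairs with the same number, deviations from the group means correlated at -0.07 to 0.25, and 3 pairs exceeded 0.1. The median was 0.025, against -0.025 for pairs with different numbers, and 6 of 12 libraries correlated best with their own number. With a replicate block 7, 5, 8, 10 and 7 members were called for oxamate in parental and in resistant cells, resistant against parental cells after vehicle and after oxamate, and the difference of responses, BID being added in parental cells under oxamate and between the lines after oxamate. Beside these, 4269 of 14582 genes were called higher and 4544 lower in parental cells, and 1622 and 2128 in resistant cells. Between the lines these were 5668 and 5492 after vehicle and 5988 and 5817 after oxamate, and 3464 and 3334 for the difference. Without the block fewer genes were called in each, for example 1314 and 1825 in resistant cells. Depth limited BCL2 most, which had 121 to 334 counts per library and an SE of up to 0.11.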
